A study of Mus musculus with 6 samples.

Results

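RNA-seq of mouse embryonic fibroblasts (MEFs), primary cells grown from mouse embryos, was read for the genes that encode collagen chains. A gene was taken as a member when its symbol was Col, a number, the letter a and a second number, which gave 44 of the 17092 genes in the table. By the number of the collagen type, 11 were fibrillar (types I, II, III, V, XI, XXIV and XXVII), 9 formed networks (types IV, VIII and X), 9 were FACITs, the fibril-associated collagens with interrupted triple helices (types IX, XII, XIV, XVI, XIX, XX, XXI and XXII, with no type XXI gene among the symbols found), 6 formed beaded filaments (type VI) and 9 were of other types. The MEFs came from wild-type (WT) mice and from *Aff3ir-ORF2-/-* mice, a global CRISPR/Cas9 knockout of the ORF2 reading frame of the nested gene *Aff3ir*, with 3 libraries of each genotype. Per the study's methods the cells were at passages 4–7, and no treatment is given for these libraries. The labels do not say whether the 3 libraries of a genotype came from separate embryos or cultures, so every p-value here measures only the spread between these libraries. *Aff3ir* was not analysed here.

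Collagen chains are made in the endoplasmic reticulum, where prolines and lysines are hydroxylated and 3 chains wind into a triple helix. Fibrillar collagens are then trimmed outside the cell and assembled into crosslinked fibrils, whereas type IV forms the sheet of basement membranes and type VI forms fine beaded filaments around cells. Fibroblasts are the main source of type I, III, V and VI collagen in connective tissue. Types II, IX, X and XI are best known from cartilage, where type X marks hypertrophic chondrocytes, and type VII anchors basement membranes of skin to the tissue beneath.

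Library totals were close, from 17435133 to 17726034 counts in the WT libraries and from 18209421 to 18252330 in *Aff3ir-ORF2-/-*. The WT libraries differed little from each other, with a biological coefficient of variation, the spread beyond counting noise, of 0.0185 over all tested genes against 0.0998 in *Aff3ir-ORF2-/-* and 0.0641 there without replicate 2, so that the spread used in the tests came mostly from the *Aff3ir-ORF2-/-* libraries. All 12 fibroblast markers on the list were detected in every library, and their summed level was 16961 to 17104 CPM (counts scaled to a library of fixed size) in WT and 16869 to 19548 CPM in *Aff3ir-ORF2-/-*, with *Fn1* giving the greater part of the sum (means of 8867 and 12071 CPM). Of the 12, 3 were higher (*Lum* by 2.17 on the log2 scale, *Dcn* and *Pdgfrb*) and 2 lower (*Postn* at -1.04 and *Fbln1* at -0.72). Over all tested genes 14.3% were higher and 7.32% lower by the thresholds given below. Markers of other cells were called too, in lists of which several had few tested genes. All 15 macrophage markers were higher in *Aff3ir-ORF2-/-*, with a summed level of 22.6 to 25.4 CPM in WT against 1337 to 2287 CPM. *C1qa*, *C1qb* and *Fcgr1* were at 0 in every WT library, so these entered the test only through the *Aff3ir-ORF2-/-* libraries. Of 10 smooth muscle markers 7 were higher and none lower, with sums of 4511 to 4620 CPM against 7539 to 8254 CPM. Of 7 tested Schwann cell and neural crest markers 5 were higher (19.9 to 22.9 CPM against 23.7 to 38.6 CPM), of 4 cartilage markers 1 was higher and 2 lower (22.7 to 23.9 CPM against 14 to 16.2 CPM), and of 3 bone markers none was higher and 1 lower (57.8 to 61.2 CPM against 37.1 to 42.5 CPM). Among the remaining lists, endothelial markers gave 3 higher and 1 lower of 6 tested (11.4 to 12.1 CPM against 18.9 to 23.6 CPM), adipocyte markers 2 higher of 4 (36.5 to 38.9 CPM against 48.0 to 57.1 CPM), skeletal muscle markers 1 higher of 3 (78.9 to 82.3 CPM against 211 to 330 CPM) and epithelial markers 1 higher of 1 (3.92 to 4.70 CPM against 5.74 to 7.79 CPM). The part of these cells in the collagen values was not tested. In bulk RNA, fewer cells of a type and less RNA per cell cannot be told apart.

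The collagen genes did not move together. Of the 44, 34 passed the filter on low counts, 8 were higher in *Aff3ir-ORF2-/-* (23.5% of the 34) and 7 were lower (20.6%), where a call asked for 1.5-fold or more in either direction with an adjusted p below 0.05. Over all 13075 tested genes 14.3% were higher and 7.32% lower by the same thresholds. The higher members were *Col2a1*, *Col11a1*, *Col11a2*, *Col4a6*, *Col10a1*, *Col14a1*, *Col19a1* and *Col28a1*. The lower members were *Col5a3*, *Col6a1*, *Col6a2*, *Col6a3*, *Col7a1*, *Col17a1* and *Col18a1*. A further 11 members passed the adjusted p but changed by less than 1.5-fold, and 8 did not pass it. The median log2 fold change of the 34 was 0.036 beside 0.0056 over all tested genes, and its sign turned with the test used and with the libraries left out. The 3 libraries of one genotype lay apart from the 3 of the other for 27 of the 34 members (79.4%), with 14 above and 13 below WT, against 66.0% of all tested genes. That share was larger for abundant genes, as given below.

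The calls of abundant and scarce members leaned in opposite directions, a difference that was not tested. Among the 17 tested members with the higher average level, 1 was called higher and 5 lower, and among the 17 with the lower level 7 were higher and 2 lower. Of all tested genes at or above the same dividing level (6.72 on the log2 CPM scale), 4.02% were higher and 4.87% lower, and below it 16.2% and 7.79%. Genotypes did not overlap for 94.1% of the more abundant members, against 75.0% of all tested genes at that level. For the scarcer members it was 64.7%, against 64.3% of all tested genes below the level. The plot of fold changes by class shows both directions inside the fibrillar group and in the group of other types, and one direction in type VI and in the networks.

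**Figure D1:**
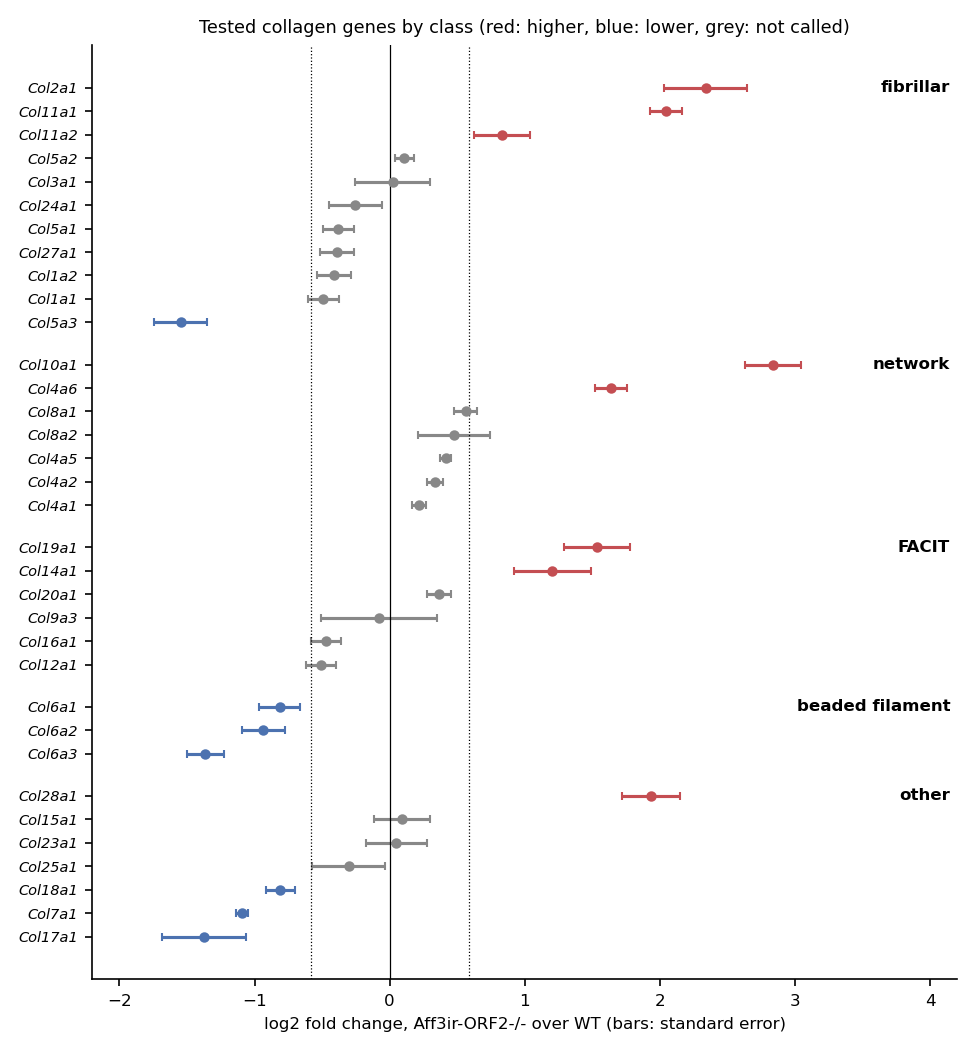
Log2 fold change of Aff3ir-ORF2-/- over WT (x axis) for the 34 tested collagen genes, grouped by class, with points for the fitted value and bars for its standard error (3 libraries of each genotype). Dotted lines mark 1.5-fold in either direction, and all 7 network genes lie to the right of 0 while all 3 type VI genes lie to the left, from -0.81 to -1.36.

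The sequence just upstream of the annotated start site is printed for the members with the largest called changes. Their window had to lie outside annotated genes for at least 150 bases, with an average level of at least 1 on the log2 CPM scale. Which start sites were used in these cells was not measured. RefSeq windows of the build GRCm38.p6 were at hand for 35 of the 44 members, and the 250 bases before the start site were searched on both strands for the TATA box (TATAAA), the CCAAT box (CCAAT) and the GC box (GGGCGG). Each printed part begins 250 bases before the start site and leaves out the bases nearest to it where they lie inside an annotated gene. Capitals mark a match that lies whole within the printed part, and the counts of members that follow also take in matches in the bases left out. The coordinates and strands are chr3:114030290-114030478 (plus) for *Col11a1*, chrX:141474096-141474326 (minus) for *Col4a6*, chr9:20815118-20815317 (minus) for *Col5a3*, chr1:90844002-90844221 (minus) for *Col6a3* and chr9:108953336-108953585 (plus) for *Col7a1*. Each is read 5′ to 3′ on the strand of its gene.
*Col11a1* (higher): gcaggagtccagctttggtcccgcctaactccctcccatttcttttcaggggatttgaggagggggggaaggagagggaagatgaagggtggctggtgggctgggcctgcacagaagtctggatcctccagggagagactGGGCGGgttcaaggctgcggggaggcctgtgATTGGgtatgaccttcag
*Col4a6* (higher): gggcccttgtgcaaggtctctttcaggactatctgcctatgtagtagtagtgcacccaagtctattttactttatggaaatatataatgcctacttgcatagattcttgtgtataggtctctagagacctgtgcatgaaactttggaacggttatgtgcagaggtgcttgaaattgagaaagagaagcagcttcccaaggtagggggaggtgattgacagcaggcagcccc
*Col5a3* (lower): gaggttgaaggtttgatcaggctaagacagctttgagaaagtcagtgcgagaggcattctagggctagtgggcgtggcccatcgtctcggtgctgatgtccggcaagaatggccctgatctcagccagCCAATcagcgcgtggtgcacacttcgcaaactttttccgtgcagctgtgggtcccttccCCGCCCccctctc
*Col6a3* (lower): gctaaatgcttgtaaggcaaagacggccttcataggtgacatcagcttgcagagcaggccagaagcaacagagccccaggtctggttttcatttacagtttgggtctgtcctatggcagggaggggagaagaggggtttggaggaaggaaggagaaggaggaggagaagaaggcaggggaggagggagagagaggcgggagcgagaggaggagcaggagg
*Col7a1* (lower): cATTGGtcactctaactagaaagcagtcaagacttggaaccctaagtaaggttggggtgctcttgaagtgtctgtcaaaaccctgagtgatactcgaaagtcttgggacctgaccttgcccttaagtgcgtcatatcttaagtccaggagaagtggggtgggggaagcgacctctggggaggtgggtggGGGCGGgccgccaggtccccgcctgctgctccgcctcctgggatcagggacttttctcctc

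Matches were found in higher and lower members alike. The 35 members had 38 windows, and a member was counted when any of its windows held a match. The percents given beside them are of single windows, so the units differ. TATAAA was present in the window of 5 of the 35 members (*Col10a1*, *Col11a2*, *Col13a1*, *Col17a1* and *Col3a1*) and in 12.4% of all 32851 RefSeq windows. CCAAT was present in 13 members against 33.8% of all windows, among them 1 of the 6 higher members with a window (*Col11a1*) and 4 of the 7 lower ones. GGGCGG was present in 21 members against 32.7% of all windows, in 3 of the 6 higher and 4 of the 7 lower. None of the 3 motifs was found in the window of *Col6a3*. A match describes letters in the window only.

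Fibrillar collagens were the most abundant class, and their 11 genes, all tested, gave 3 higher, 1 lower and 7 not called. That was 27.3% higher and 9.09% lower, beside 14.3% and 7.32% of all tested genes. Without *Aff3ir-ORF2-/-* replicate 2 the lower count was 3, since *Col1a1* and *Col1a2* then passed both thresholds. The chains of type I, the main fibril of bone, tendon and skin, were somewhat lower. *Col1a1* had 126402, 130083 and 128737 counts in the WT libraries and 88599, 119319 and 82003 in the *Aff3ir-ORF2-/-* libraries, and the genotypes did not overlap. Its log2 fold change was -0.49 ± 0.12 (SE, adjusted p = 0.00659; here and for every gene, from the quasi-likelihood test of edgeR after Benjamini-Hochberg adjustment). *Col1a2* had 91019, 92996 and 91567 counts against 66124, 91362 and 61341 (log2 fold change -0.41 ± 0.12, adjusted p = 0.0191), with replicate 2 close to WT in raw counts and below every WT library after scaling (4901 CPM against 5239 to 5288 CPM). With any 1 WT library or *Aff3ir-ORF2-/-* replicate 1 left out, *Col1a2* no longer passed the adjusted p (0.0546 to 0.0671). Per kilobase of transcript *Col1a1* had the highest level of all members in both genotypes, 1242 CPM in WT and 884 CPM in *Aff3ir-ORF2-/-*, followed by *Col1a2* with 985 and 740 CPM.

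Type III, which mixes with type I in elastic tissues, did not pass the test and was uneven between the *Aff3ir-ORF2-/-* libraries. *Col3a1* had 16253, 16937 and 16937 counts in the WT libraries and 10648, 28211 and 15093 in the *Aff3ir-ORF2-/-* libraries (log2 fold change 0.02 ± 0.28, adjusted p = 0.947). Replicate 2 lay above every WT library and replicates 1 and 3 below them, and without replicate 2 the log2 fold change was -0.45 with an adjusted p of 0.00228.

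The type V chains, which start and limit the width of type I fibrils, split. *Col5a3* fell from 4609, 4655 and 4315 counts in WT to 1400, 2322 and 1198 (log2 fold change -1.55 ± 0.20, adjusted p = 2.22e-04). *Col5a1* had 37981, 38513 and 37945 counts against 29325, 37827 and 25856 (-0.38 ± 0.11, adjusted p = 0.0187), a change under 1.5-fold that no longer passed the adjusted p with any 1 WT library or *Aff3ir-ORF2-/-* replicate 1 left out (0.0525 to 0.0684). *Col5a2*, which lies next to *Col3a1* in the genome, had 36162, 36910 and 36597 counts against 39203, 46914 and 38848, and its log2 fold change of 0.11 ± 0.07 did not pass the test (adjusted p = 0.202). All 3 *Aff3ir-ORF2-/-* libraries were above WT for *Col5a2* and below WT for the other type V chains.

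The cartilage-type fibrillar chains were higher from low levels. *Col11a1* rose from 941, 925 and 950 counts in WT to 3576, 5036 and 3679 (log2 fold change 2.05 ± 0.12, adjusted p = 3.83e-06), the only member called higher among the 17 more abundant ones. *Col2a1*, the main collagen of cartilage, rose from 43, 44 and 47 counts to 181, 177 and 360 (2.34 ± 0.31, adjusted p = 2.66e-04), with replicate 3 well above the other *Aff3ir-ORF2-/-* libraries. *Col11a2*, which partners both of them in cartilage fibrils, rose from 25, 32 and 27 to 43, 53 and 62 counts (0.83 ± 0.21, adjusted p = 0.00818). None of the 3 overlapped between genotypes. Other cartilage markers did not share one direction: *Sox9*, the transcription factor that drives *Col2a1* in chondrocytes, had 343, 359 and 346 counts in the WT libraries and 196, 153 and 204 in the *Aff3ir-ORF2-/-* libraries, *Acan* had 28, 36 and 39 against 6, 21 and 22, and *Comp* had 10, 9 and 6 against 70, 68 and 56. The remaining fibrillar genes were *Col27a1* (-0.39 ± 0.12, adjusted p = 0.0242, 0.0596 to 0.0770 when any 1 library other than *Aff3ir-ORF2-/-* replicate 2 was left out) and *Col24a1* (-0.25 ± 0.20, adjusted p = 0.298), which without *Aff3ir-ORF2-/-* replicate 2 was at -0.56 with an adjusted p of 6.32e-04.

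Type VI fell in all 3 of its expressed chains, which were the only 3 of its 6 genes to pass the filter. Type VI is built from a trimer of the chains of *Col6a1*, *Col6a2* and *Col6a3*. *Col6a3* had 34423, 34876 and 36399 counts in the WT libraries and 13489, 18324 and 11616 in the *Aff3ir-ORF2-/-* libraries (log2 fold change -1.36 ± 0.14, adjusted p = 5.81e-05). *Col6a2* had 12651, 12191 and 12444 counts against 5827, 9186 and 5617 (-0.93 ± 0.16, adjusted p = 0.00107). *Col6a1* had 16141, 15661 and 15677 counts against 8097, 12536 and 7920 (-0.81 ± 0.15, adjusted p = 0.00166). In each chain the genotypes did not overlap and replicate 2 was the highest *Aff3ir-ORF2-/-* library. *Col6a1* and *Col6a2* are neighbours in the genome, whereas *Col6a3* lies on another chromosome. The alternative chains were barely detected, with 5 to 17 counts per library for *Col6a4*, 0 to 10 for *Col6a5* and 0 to 6 for *Col6a6*.

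Network collagens had positive log2 fold changes in all 7 tested genes, of which 6 passed the adjusted p. Of the 7, 2 were called higher (28.6%, beside 14.3% of all tested genes). Without *Aff3ir-ORF2-/-* replicate 2, 9 network genes were tested and 4 were called, the added ones being *Col8a1* and *Col4a3*. The 4 tested type IV genes all passed the adjusted p with positive changes under every scaling, but only *Col4a6* passed 1.5-fold. *Col4a1* and *Col4a2*, the chains found in nearly every basement membrane, lie next to each other. *Col4a1* had 23369, 23160 and 23226 counts in the WT libraries and 30103, 28224 and 27139 in the *Aff3ir-ORF2-/-* libraries (log2 fold change 0.22 ± 0.05, adjusted p = 0.00785). *Col4a2* had 16786, 16583 and 16425 counts against 23224, 22587 and 20534 (0.34 ± 0.06, adjusted p = 9.65e-04). Neither pair of ranges overlapped. The X-linked neighbours *Col4a5* and *Col4a6* moved to unequal degrees. *Col4a5* had 1861, 1910 and 1893 counts against 2699, 2730 and 2542 (0.42 ± 0.04, adjusted p = 7.10e-05), and *Col4a6* rose from 53, 53 and 48 to 161, 169 and 177 (1.64 ± 0.12, adjusted p = 1.14e-05). The other neighbouring pair, whose chains build the membrane of the kidney glomerulus, was near the limit of detection, with *Col4a3* at 3 to 5 counts in WT and 10 to 20 in *Aff3ir-ORF2-/-* and *Col4a4* at 4 to 6 and 8 to 12. Neither passed the filter on low counts with all libraries kept.

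Among the short-chain networks *Col10a1* had the largest change of all members, from 11, 13 and 16 counts to 101, 89 and 114 (log2 fold change 2.84 ± 0.21, adjusted p = 1.23e-05). *Col8a1*, a chain of vessel walls and Descemet's membrane, had 3336, 3617 and 3481 counts against 5434, 4755 and 6060 and stayed just under 1.5-fold (0.56 ± 0.08, adjusted p = 5.38e-04), passing it when libraries were scaled by upper quartile or by total counts. Its partner *Col8a2* did not pass the test (0.48 ± 0.27, adjusted p = 0.157), but was called higher without *Aff3ir-ORF2-/-* replicate 1 (0.72, adjusted p = 0.0155).

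Of 6 tested FACITs 2 were called higher (33.3%, beside 14.3% of all tested genes) and none lower, or 2 lower without *Aff3ir-ORF2-/-* replicate 2. *Col12a1*, the abundant FACIT on the surface of type I fibrils, had 56878, 58740 and 58767 counts in the WT libraries and 38116, 53178 and 38189 in the *Aff3ir-ORF2-/-* libraries (log2 fold change -0.51 ± 0.11, adjusted p = 0.00446). *Col16a1* was lower by a similar amount (-0.47 ± 0.11, adjusted p = 0.00629), and neither reached 1.5-fold. *Col14a1*, the FACIT most like *Col12a1*, rose from 47, 65 and 59 counts to 80, 153 and 184 (1.21 ± 0.29, adjusted p = 0.00657), with replicate 1 well under the other *Aff3ir-ORF2-/-* libraries. *Col19a1* rose from 18, 18 and 19 to 56, 43 and 70 (1.54 ± 0.24, adjusted p = 7.42e-04). *Col20a1* was higher by 0.37 ± 0.09 on the log2 scale (adjusted p = 0.00668), and *Col9a3* had 14 to 18 counts in WT and 8 to 28 in *Aff3ir-ORF2-/-* (-0.08 ± 0.43, adjusted p = 0.888). Not tested were *Col9a1*, next to *Col19a1* in the genome, with 1 count in each WT library and 5, 4 and 8 in *Aff3ir-ORF2-/-*, *Col9a2* with 1 to 11 counts per library and *Col22a1* with 3 to 12.

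Among the other types *Col7a1*, *Col17a1* and *Col18a1* were lower and *Col28a1* higher. *Col7a1* had 7314, 7229 and 6955 counts in the WT libraries and 3646, 3534 and 3448 in the *Aff3ir-ORF2-/-* libraries (log2 fold change -1.09 ± 0.05, adjusted p = 1.45e-06), with the smallest standard error of the called members and no excess in replicate 2. *Col18a1*, whose end fragment is endostatin, had 1924, 1991 and 1909 counts against 927, 1339 and 1243 (-0.81 ± 0.11, adjusted p = 2.86e-04). *Col17a1*, the transmembrane collagen of hemidesmosomes, was scarce, with 16, 25 and 21 counts against 7, 8 and 10 (-1.37 ± 0.31, adjusted p = 0.00486). *Col28a1*, a collagen known from peripheral nerve, rose from 28, 35 and 19 to 97, 129 and 106 counts (1.93 ± 0.22, adjusted p = 1.08e-04). None of these 4 overlapped between genotypes, as the plot of the called members shows, though the call itself makes this likely. Of the 10 epithelial markers *Epcam*, *Krt5* and *Krt14* had 0 to 5 counts in every library, whereas *Esrp2* was higher, with 67, 58 and 64 counts in WT against 104, 84 and 118, and *Cldn4*, which was not tested, had 1, 1 and 0 against 16, 6 and 21.

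**Figure D2:**
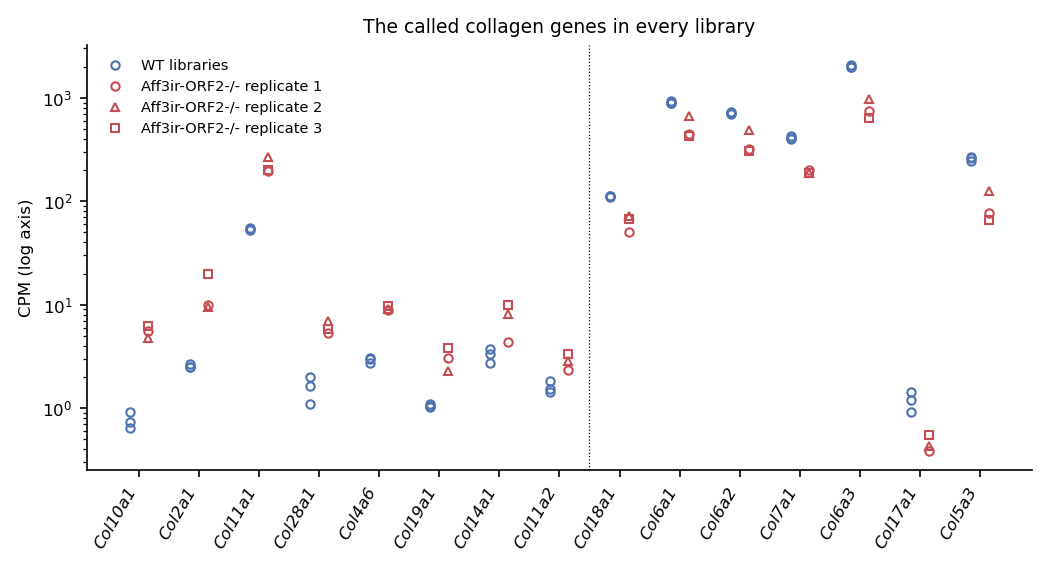
CPM on a log axis (y) of the 15 called collagen genes (x axis, ordered by log2 fold change, with a dotted line between the higher and the lower genes), with 1 point per library, WT in blue and Aff3ir-ORF2-/- in red with a shape for each replicate. In every gene the 3 red points lie on one side of the 3 blue points, which picking genes by the call makes likely. The lower genes other than Col17a1 sit at higher levels than the higher genes other than Col11a1.

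The last members were not called. *Col15a1*, a close relative of *Col18a1*, had 56, 41 and 56 counts in the WT libraries and 46, 57 and 69 in the *Aff3ir-ORF2-/-* libraries (log2 fold change 0.09 ± 0.21, adjusted p = 0.732). *Col23a1* had 72 to 95 counts against 61 to 112 (0.05 ± 0.23, adjusted p = 0.867), and *Col25a1* had 37 to 42 against 26 to 50 (-0.30 ± 0.27, adjusted p = 0.366, and -0.68 with an adjusted p of 0.0221 without *Aff3ir-ORF2-/-* replicate 2). *Col13a1* had 0 to 1 counts and *Col26a1* 0 to 7 counts per library. At such counts a difference between genotypes was not detectable.

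Collagen transcripts took a smaller share of the *Aff3ir-ORF2-/-* libraries, mostly in types I and VI. The 44 genes held 2.83%, 2.83% and 2.83% of WT counts and 2.06%, 2.70% and 1.96% of *Aff3ir-ORF2-/-* counts, a difference of -0.589 percentage points without overlap (exact two-sided permutation test, p = 0.1, the smallest that 3 against 3 libraries can give). The difference was -0.820 percentage points without replicate 2. Type I gave -0.320 and type VI -0.191 percentage points of it. Without *Col1a1* and *Col1a2*, the 2 genes with the most counts, it was -0.269 without overlap, and without types I and VI it was -0.078 and the genotypes overlapped (p = 0.4 by the same exact permutation test). By class, network genes took more of the library (0.257% in WT and 0.324% in *Aff3ir-ORF2-/-*, as means of 3), and FACITs (0.354% and 0.256%) and type VI (0.361% and 0.169%) took less, each without overlap. The fibrillar share, 1.80% and 1.46%, overlapped between genotypes, with replicate 2 at 1.82%.

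**Figure D3:**
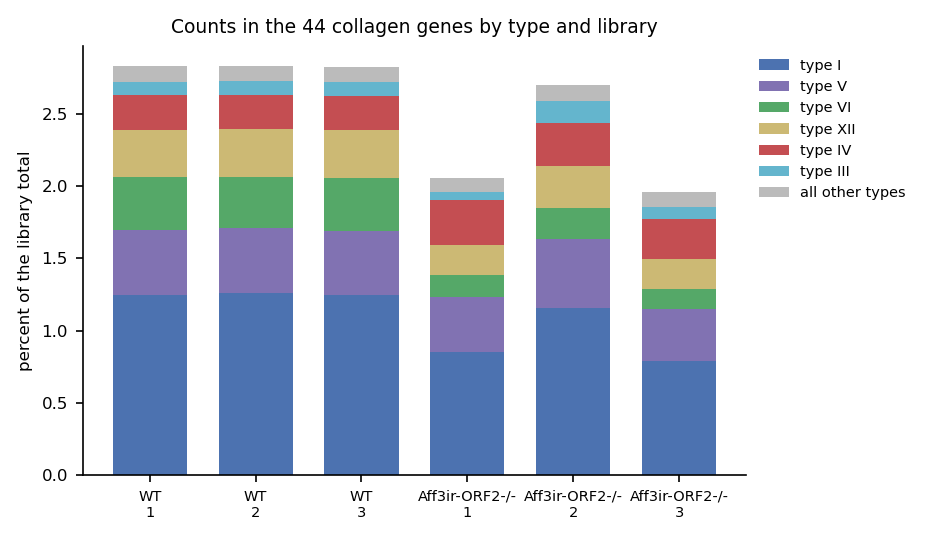
Percent of the library total (y axis) in the 44 collagen genes for the 3 WT and 3 Aff3ir-ORF2-/- libraries (x axis), stacked by collagen type. The bars reach 2.83% in the WT libraries and 2.06%, 2.70% and 1.96% in Aff3ir-ORF2-/-, with a thinner type VI part and a thicker type IV part in all 3.

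The make-up of the collagen counts shifted as well. Type IV formed 8.53%, 8.31% and 8.33% of collagen counts in WT, against 15%, 10.9% and 14.1% in *Aff3ir-ORF2-/-*, and type VI formed 12.8%, 12.5% and 12.9% against 7.31%, 8.13% and 7.05%. Type I remained the largest part, 44.1%, 44.4% and 44.1% against 41.3%, 42.7% and 40.2%, and type V went from 15.9% ± 0.095 (SD, n = 3) to 18.3% ± 0.53. These shares are within a library and do not depend on scaling between libraries, but each rises when another falls.

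Count ratios between chains that join in one molecule or replace each other were compared within each library, for 19 pairs of which 15 had more than 3 counts in every library for both genes. In 12 of the 15 the genotypes did not overlap, and each of these gave p = 0.1 by an exact two-sided permutation test (0.125 after adjustment over the 15 pairs), the smallest the design allows, so none can pass 0.05. Taken as single genes, 66.0% of all tested genes did not overlap. Ratios of other gene pairs were not computed, so the count of 12 has no matching share. The log2 difference was small for 3 pairs of partner chains (-0.07, -0.12 and 0.12). The ratio of *Col1a1* to *Col1a2* was 1.39, 1.40 and 1.41 in WT and 1.34, 1.31 and 1.34 in *Aff3ir-ORF2-/-*, that of *Col4a1* to *Col4a2* was 1.39, 1.40 and 1.41 against 1.30, 1.25 and 1.32, and that of *Col6a1* to *Col6a2* was 1.28, 1.28 and 1.26 against 1.39, 1.36 and 1.41. Other partner chains moved further. The ratio of *Col6a3* to *Col6a1* went from 2.13, 2.23 and 2.32 to 1.67, 1.46 and 1.47 (log2 difference -0.54), that of *Col5a1* to *Col5a2* from 1.05, 1.04 and 1.04 to 0.748, 0.806 and 0.666 (-0.50), and *Col11a1* over *Col11a2* differed by 1.20. The ratio of *Col4a5* to *Col4a6* was 35.1, 36.0 and 39.4 in WT and 16.8, 16.2 and 14.4 in *Aff3ir-ORF2-/-* (-1.23).

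Ratios between chains that can replace each other or are alike in structure also moved. *Col11a1* can stand in for *Col5a1* in hybrid type V and XI molecules, and its count ratio to *Col5a1* went from 0.0248, 0.0240 and 0.0250 to 0.122, 0.133 and 0.142, a log2 difference of 2.43. The ratio of *Col5a3* to *Col5a1* went from 0.121, 0.121 and 0.114 to 0.0477, 0.0614 and 0.0463 (log2 difference -1.21). Among the related FACITs the ratio of *Col12a1* to *Col14a1* went from 1210, 904 and 996 to 476, 348 and 208. Further differences without overlap were found for *Col4a5* over *Col4a1* (log2 difference 0.20) and *Col15a1* over *Col18a1* (0.91). Ranges overlapped for *Col3a1* over *Col1a1*, *Col3a1* over *Col5a2* and *Col8a1* over *Col8a2*.

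**Figure D4:**
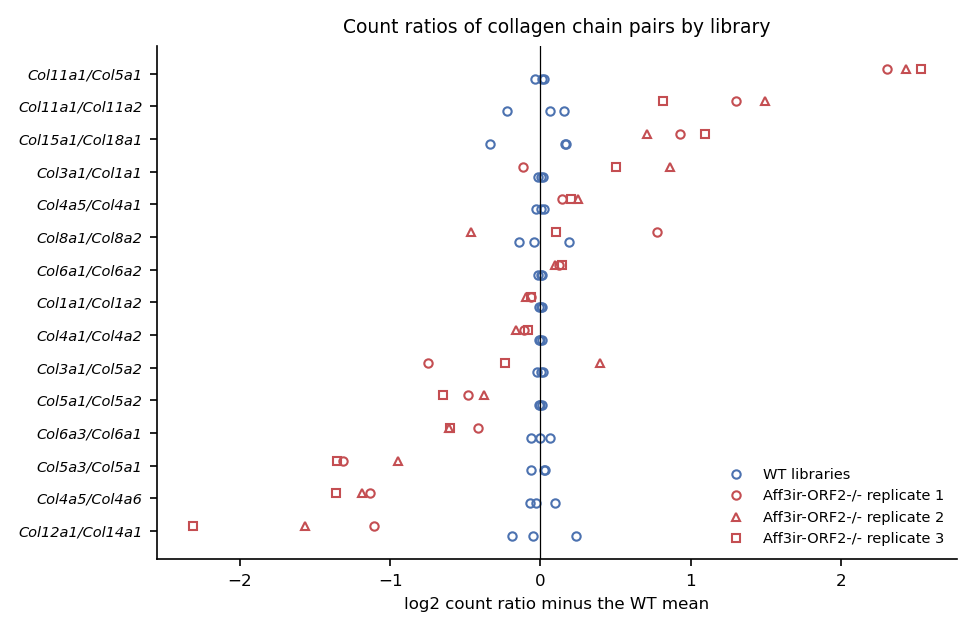
Log2 of the count ratio of 15 chain pairs in each library, minus the mean of the WT libraries (x axis), with 1 row per pair, WT in blue and Aff3ir-ORF2-/- in red with a shape for each replicate. The red points lie apart from the blue ones in 12 pairs, from a mean of -1.66 for Col12a1 over Col14a1 to 2.43 for Col11a1 over Col5a1.

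*Aff3ir-ORF2-/-* replicate 2 stood apart in the collagen genes, as it did over all genes. A chi-square per degree of freedom over the collagen counts was 2.67 to 3.94 between WT libraries, 50.9 between *Aff3ir-ORF2-/-* replicates 1 and 3, and 234 and 157 between each of these and replicate 2. Over all genes the same values were 1.38 to 1.71, 5.56, and 14.9 and 18.9. This value grows with the counts of a gene, so its size in collagen genes and in all genes cannot be compared directly. Of the 34 tested members 19 were highest in replicate 2 among the *Aff3ir-ORF2-/-* libraries (55.9%), against 36.5% of all tested genes with more than 3 counts in each of those libraries. These 19 included 9 of 11 fibrillar genes and all 3 type VI genes, but 1 of 7 network genes. The median log2 ratio of replicate 2 to the mean of the others was 0.45 for fibrillar, 0.62 for type VI and -0.03 for network genes, with the highest ratio, 1.11, for *Col3a1*. The summed level of the fibroblast markers was also highest in replicate 2, at 19548 CPM, and that of the smooth muscle markers lowest, at 7539 CPM. Single markers did not all follow these sums. Among the *Aff3ir-ORF2-/-* libraries *Vim* and *S100a4* were lowest in replicate 2, and *Actg2*, *Myh11* and *Des* were highest. The part of these cells in the difference was not tested. Without replicate 2, 37 members were tested, 10 were called higher and 12 lower, the added lower members being *Col1a1*, *Col1a2*, *Col12a1*, *Col16a1* and *Col25a1*.

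**Figure D5:**
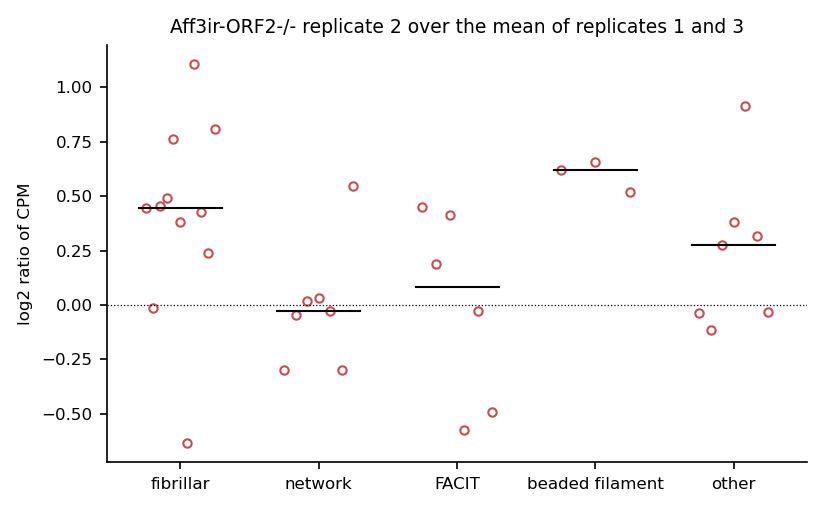
Log2 ratio of CPM in Aff3ir-ORF2-/- replicate 2 to the mean of replicates 1 and 3 (y axis) for the 34 tested collagen genes by class (x axis), with 1 point per gene and a bar at the class median. The fibrillar and type VI medians lie at 0.45 and 0.62 and the network median at -0.03.

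Other genes of the collagen pathway more often rose than fell. Of 70 genes in 5 lists 65 were tested, 17 were higher and 3 lower (26.2% and 4.62%, beside 14.3% and 7.32% of all tested genes), and the median log2 fold change was 0.23. With at least 10 counts asked of every library 63 were tested and 15 were higher. *Lair1* and *Mmp8*, which passed the main filter only through the *Aff3ir-ORF2-/-* libraries, then dropped out. Of 18 tested genes for hydroxylation and folding 2 were higher (11.1%) and none lower. *Plod2*, a lysyl hydroxylase for the telopeptides that carry crosslinks, rose by 0.78 ± 0.09 on the log2 scale (adjusted p = 1.12e-04), and *Fkbp14*, a prolyl isomerase of the endoplasmic reticulum, by 0.70 ± 0.08 (adjusted p = 1.60e-04). *P3h4* (0.42 ± 0.04), *P4ha1* (0.53 ± 0.07) and *Fkbp10* (0.27 ± 0.04) passed the adjusted p under 1.5-fold. *Serpinh1*, the collagen chaperone HSP47, had 27053, 26492 and 26246 counts in the WT libraries and 22481, 24599 and 21179 in the *Aff3ir-ORF2-/-* libraries (-0.30 ± 0.06, adjusted p = 0.00196), and was named after its values were seen.

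Among crosslinking enzymes *Lox*, *Loxl2*, *Loxl4* and *Tgm2* rose, while the processing genes *Adamts14* and *Pcolce2* fell. Of 13 tested genes in that list 4 were higher and 2 lower (30.8% and 15.4%, beside 14.3% and 7.32% of all tested genes). The lysyl oxidases *Loxl3* (-0.41 ± 0.06) and *Loxl1* (0.13 ± 0.04) and the processing proteases *Bmp1* (-0.45 ± 0.07) and *Adamts2* (-0.50 ± 0.14) passed the adjusted p under 1.5-fold. *Lox*, the lysyl oxidase that starts crosslinks, had 36638, 38059 and 37659 counts in the WT libraries and 68428, 76183 and 58614 in the *Aff3ir-ORF2-/-* libraries (log2 fold change 0.78 ± 0.08, adjusted p = 8.45e-05). *Tgm2*, a transglutaminase, rose by 1.33 ± 0.09 (adjusted p = 1.05e-05) and *Loxl4* by 0.59 ± 0.06 (adjusted p = 7.59e-05). *Adamts14*, a procollagen N-proteinase, fell by 1.23 on the log2 scale (SE 0.09, adjusted p = 1.14e-05), and *Pcolce2*, an enhancer of C-propeptide removal, had 752, 731 and 778 counts against 274, 176 and 222 (-1.83 ± 0.13, adjusted p = 1.18e-05).

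Receptors for collagen gave 4 higher and none lower of 10 tested (40.0% higher, beside 14.3% higher and 7.32% lower of all tested genes). *Itga10* was among the 4, with 27, 20 and 12 counts in the WT libraries and 40, 52 and 43 in the *Aff3ir-ORF2-/-* libraries (log2 fold change 1.11 ± 0.28, adjusted p = 0.00878). The collagen-binding integrin chains *Itga1* (124, 139 and 149 counts against 533, 617 and 486, log2 fold change 1.91 ± 0.11, adjusted p = 3.28e-06) and *Itga11* (875, 793 and 857 against 2525, 3255 and 2485, 1.63 ± 0.10, adjusted p = 4.97e-06) rose. Their shared partner *Itgb1* (0.33 ± 0.05) and the receptor kinase *Ddr1* (0.42 ± 0.07) passed the adjusted p under 1.5-fold, as did *Mrc2* (0.37 ± 0.08) and, in the other direction, the related kinase *Ddr2* (-0.33 ± 0.09). *Lair1*, an inhibitory collagen receptor of leukocytes, had 2, 2 and 0 counts in the WT libraries and 43, 78 and 45 in the *Aff3ir-ORF2-/-* libraries, beside the macrophage markers given above. *Lair1* passed the filter on low counts only through the *Aff3ir-ORF2-/-* libraries, so its call could hardly have gone the other way.

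Of 9 tested genes for breakdown and its inhibitors 3 were higher and none lower (33.3% higher, beside 14.3% higher and 7.32% lower of all tested genes). Both *Timp2* (14086, 14175 and 14081 counts against 28814, 28553 and 29026, log2 fold change 0.95 ± 0.04, adjusted p = 1.82e-06) and *Timp1* (1.11 ± 0.07, adjusted p = 5.35e-06), inhibitors of matrix metalloproteinases, rose. The neutrophil collagenase *Mmp8* had 5, 4 and 2 counts in the WT libraries and 16, 15 and 35 in *Aff3ir-ORF2-/-*. It passed the filter on low counts only through the *Aff3ir-ORF2-/-* libraries, so its call could hardly have gone the other way. *Mmp2* (0.42 ± 0.10) and *Timp3* (0.49 ± 0.15) passed the adjusted p under 1.5-fold, as did the collagen-degrading protease *Ctsk* in the other direction (-0.35 ± 0.11). Of 15 regulators of collagen transcription 4 were higher and 1 lower (26.7% and 6.67%, beside 14.3% and 7.32% of all tested genes). *Scx*, 1 of the 4, had 29, 34 and 30 counts in the WT libraries and 46, 103 and 67 in the *Aff3ir-ORF2-/-* libraries (1.13 ± 0.29, adjusted p = 0.00922). *Sox9* fell by 1.00 on the log2 scale (SE 0.11, adjusted p = 9.86e-05), whereas *Sox5* (1.46 ± 0.21, adjusted p = 3.92e-04) and *Sox6* (1.05 ± 0.21, adjusted p = 0.00258), its partners in chondrocytes, rose from 18 to 22 and 27 to 44 counts to 48 to 65 and 70 to 94. *Tgfb2*, a growth factor that induces collagen genes, rose by 0.59 ± 0.07 (adjusted p = 2.17e-04), and the bone factor *Runx2* was lower by less than 1.5-fold (-0.51 ± 0.06, adjusted p = 2.15e-04), as was *Ccn2* (-0.55 ± 0.12), while *Mkx* (0.49 ± 0.16) and *Prrx1* (0.27 ± 0.06) passed the adjusted p above WT under 1.5-fold.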

How the data were processed

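RNA-seq of MEFs was analysed, with 3 libraries of each genotype. Reads were sequenced on DNBSEQ and filtered with SOAPnuke, and the authors deposited a table of unnormalized, estimated counts. The submitters' processing notes name the build mm8; the aligner and counting tool are not given in the sources used here. The estimated counts were rounded. In edgeR 4.0.16, filterByExpr (at least 10 counts in enough libraries, 15 in total) left 13075 of 17092 genes, to which the quasi-likelihood test was applied in one fit after TMM scaling, with genotype as the only term. A gene was called at 1.5-fold or more with a p below 0.05 after Benjamini-Hochberg adjustment over all of them. CPM used TMM-scaled library totals. Levels of different genes were compared per kilobase of the longest GENCODE M21 transcript. SE is the absolute log2 fold change over the square root of the F statistic. Shares and ratios were tested by exact permutation over libraries. The fits were tested on simulated data with the same spread in both genotypes, so the unequal spread of these libraries was not covered. DESeq2 1.42.0 and limma 3.58.1 served as alternatives.

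All collagen members were accounted for. Counts in every library were given for the 8 members with the most counts, up to 8 called in each direction and members of chain pairs without overlap, and up to 5 genes of each pathway list by adjusted p; further pathway genes were named after their values were seen. The members and lists were chosen with earlier results of these data known. How strand and reads shared by similar chains were handled is not given in the sources used here.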

Additional observations from a re-analysis of the deposited data

How the results depend on the processing

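All 15 called members kept their direction and their call under every alternative run at the same thresholds (3 scalings, other filters, DESeq2, limma voom with quality weights, the replicate number as a block, a robust estimate of the spread added after seeing the data, and each library left out), except that *Col17a1* was not tested when at least 10 counts were asked of every library. With no filter on low counts *Col4a3* and *Col9a1* were also called higher and *Col6a5* lower. The lower count was 3 when tested against a 1.5-fold change and 4 at 2-fold, and 7 to 12 with a library left out, the 12 without *Aff3ir-ORF2-/-* replicate 2. The higher count was 8 to 10 with a library left out. Pathway genes gave 8 higher when tested against a 1.5-fold change, 10 at 2-fold and 15 to 18 with a library left out. The median log2 fold change of the collagen genes was -0.0391 with limma voom, -0.0294 with the replicate block and -0.0709 to 0.162 with a library left out. *Col3a1* was at -0.0909 with limma voom and -0.0922 with the replicate block, and at -0.450 to 0.282 with a library left out. Leaving out a library also turned *Col9a3* (-0.713 to 0.238), *Col15a1* (-0.0692 to 0.215) and *Col23a1* (-0.0936 to 0.270), none of which passed the test. The cause of these changes was not tested. Same-numbered libraries deviated together with correlations of 0.039, 0.042 and 0.015, against -0.037 to 0.0046 for differently numbered ones. All are small, and whether the numbers mark pairs is not known. The main fit did not take them as pairs. The block changed no other call, the share of counts gave p = 0.25 in the exact paired sign-flip test over 3 pairs (difference -0.589 percentage points), and so did the ratios of chain pairs without overlap. Members left out by the filter on low counts were called or not according to the filter, and their calls rest on few counts, such as 1, 1 and 1 against 5, 4 and 8 for *Col9a1*.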

Other observations

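Proteins that carry a collagen-like stretch or a related domain without being collagens were read as a list of 23 genes chosen after the collagen values were seen. Of 17 tested, 8 were higher in *Aff3ir-ORF2-/-* and 2 lower, beside 14.3% and 7.32% of all tested genes, with a median log2 fold change of 0.37. The highest was *Msr1*, a scavenger receptor of macrophages, with 10, 9 and 12 counts in the WT libraries and 694, 1094 and 1046 in the *Aff3ir-ORF2-/-* libraries. *Marco*, also a macrophage receptor, had 12, 10 and 6 counts against 36, 40 and 70. Members known from other cells moved too. *Colec12*, a collectin of vessels and stroma, had 2871, 2949 and 2848 counts against 4473, 5528 and 5115, and *Emilin1*, an elastic fibre protein, had 1276, 1285 and 1224 against 2027, 2795 and 2099. *Gldn*, a protein of the nodes of Ranvier, had 22, 20 and 20 counts against 74, 82 and 84. The lower genes were *Cthrc1*, with 631, 672 and 644 counts against 389, 495 and 429, and *Emid1*, with 48, 46 and 40 against 17, 34 and 15.

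In the RefSeq gene order of GRCm38.p6, 8 pairs of collagen genes were neighbours. In 1 pair, *Col6a2* and *Col6a1*, both genes were called, in the same direction. In *Col4a6* and *Col4a5* 1 gene was called higher, and in *Col9a1* and *Col19a1* the tested gene was. *Col3a1* with *Col5a2* and *Col4a1* with *Col4a2* held no call, and in *Col4a4* with *Col4a3*, *Col6a6* with *Col6a5* and *Col6a5* with *Col6a4* neither gene was tested.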
